A study of Homo sapiens with 60 samples.

Results

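The 37 genes carried by human mitochondrial DNA were followed through 60 RNA-seq libraries of HepG2, a human hepatocellular carcinoma cell line, after 24 h with an herbal extract or with vehicle. They were chosen as the Ensembl identifiers whose gene symbol starts with MT-, which gave 37 of the 60675 identifiers in the table: 13 mRNA genes, 2 rRNA genes and 22 tRNA genes. On GENCODE 29 (GRCh38), 28 of them lie on the plus strand of chromosome M (12 mRNA, 2 rRNA and 14 tRNA genes) and 9 on the minus strand (MT-ND6 and 8 tRNA genes). The study set doses of herbal preparations against vehicle and against each other in these cells.

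The water extracts of Yijin-tang (here yijin, 3 libraries per dose) and Soshiho-tang (soshiho, 2 libraries per dose) carried sample code 8 in the labels. Ethanol extracts of Schisandrae Fructus (schisandra) and Liriopis seu Ophiopogonis Tuber (liriope) carried code 9, and those of Zizyphi Semen (zizyphus) and Longan Arillus (longan) carried code 10, with 3 libraries per dose. All 6 were given at 20, 100 and 500 µg/mL, called low, medium and high. Ethanol extracts of Polygalae Radix (polygala; 10, 50 and 250 µg/mL) and Aucklandiae Radix (aucklandia; 11.2, 56 and 280 µg/mL) carried code 11 and had 1 library per dose, so they have values and no test. The 3 vehicle libraries carried a code of their own, C1. Extract and code can therefore not be told apart in any comparison with vehicle, whereas the doses of one extract share a code. DMSO in the vehicle is given as 0.1% by the sample labels but as 2% by the series text, which the values cannot settle, and a wortmannin control that this text names is not analysed here.

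Mitochondrial DNA is a circular genome whose strands are each transcribed into long RNAs that run through many genes. In the long transcripts, tRNAs punctuate most of the mRNAs and rRNAs and are cut out by dedicated nucleases, after which the released RNAs are polyadenylated, stabilised or degraded at their own rates. The mRNAs encode core subunits of respiratory complexes I, III, IV and V, the machinery by which liver cells make most of their ATP, and the rRNAs and tRNAs serve the mitochondrial ribosome that translates them.

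The sequences below show how tightly the genes are packed and where the strand changes, since the counts of neighbouring genes are compared by strand further on. They were taken from the GENCODE 29 transcripts (GRCh38), written 5′ to 3′ along each gene's own strand with T for U, and the capitals mark the anticodon of a tRNA. MT-TQ (tRNA for glutamine, minus strand, chrM:4329-4400) and MT-TM (methionine, plus strand, chrM:4402-4469) are next to each other. MT-TW (tryptophan, plus strand, chrM:5512-5579) is followed by MT-TA (alanine, chrM:5587-5655) and MT-TN (asparagine, chrM:5657-5729), both on the minus strand.
MT-TQ: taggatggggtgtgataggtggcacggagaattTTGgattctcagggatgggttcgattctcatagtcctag
MT-TM: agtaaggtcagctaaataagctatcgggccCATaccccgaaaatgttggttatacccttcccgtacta
MT-TW: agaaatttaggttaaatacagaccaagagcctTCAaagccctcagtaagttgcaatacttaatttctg
MT-TA: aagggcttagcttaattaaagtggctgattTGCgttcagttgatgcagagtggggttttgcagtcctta
MT-TN: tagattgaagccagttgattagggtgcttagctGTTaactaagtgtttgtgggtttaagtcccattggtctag

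Pairs of mRNA genes also share bases, so part of their reads cannot be assigned to one of them. MT-ATP8 and MT-ATP6, which encode subunits of the ATP synthase membrane part, overlap by 46 bases (chrM:8527-8572), and MT-ND4L and MT-ND4, complex I subunits, overlap by 7 bases (chrM:10760-10766). In the longer overlap below the capitals mark the start codon of the downstream gene and the stop codon of the upstream gene. The shorter overlap is printed in capitals throughout, and in it the base C lies between the start codon ATG and the stop codon TAA.
MT-ATP8 and MT-ATP6 overlap: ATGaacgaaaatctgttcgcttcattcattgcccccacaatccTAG
MT-ND4L and MT-ND4 overlap: ATGCTAA

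The libraries held between 20.7 M and 38.0 M expected counts each (M, mega), and those of vehicle between 23.5 M and 30.2 M. The deepest libraries, schisandra low replicate 1 (38.0 M) and liriope high replicate 2 (37.6 M), also stood apart from their replicates in several mitochondrial values, and calls that rest on them are given with and without them. All 8 hepatocyte markers were found, with a summed level of 17397 to 49867 CPM (counts scaled to a common library size by trimmed means). Of the markers of other cells, the 5 fibroblast genes summed to 0.403 to 1.49 CPM, the 3 endothelial genes to 1.55 to 6.45 CPM and the 4 immune genes to 14.5 to 68.7 CPM. Replicates are numbered libraries and the labels do not say that they came from separate cultures, so p-values measure only the spread between libraries, which may be technical. All levels are relative to the rest of a library, so a lower share of mitochondrial RNA and more RNA from nuclear genes cannot be told apart.

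Mitochondrial genes took a smaller share of the counts in nearly all extract libraries than in vehicle. The share was 9.50% to 15.9% over the 57 extract libraries (median 11.1%), against 18.4%, 15.2% and 15.2% in the vehicle libraries (16.3% ± 1.85, SD, n = 3). Of the 57 extract libraries 56 lay below the lowest vehicle library, and liriope high replicate 2, at 15.9%, was the exception. Counting error was small beside these differences, with a 95% Wilson interval of at most ±0.0147 percentage points, which covers counting error only.

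Within each replicated extract the mean share differed less between doses than from vehicle. From low to medium to high it averaged 11.3% ± 0.579, 10.9% ± 1.29 and 12.01% ± 0.610 for yijin and 10.7% ± 0.302, 11.7% ± 1.25 and 11.3% ± 0.619 for longan (SD, n = 3 each). It averaged 10.3% ± 0.125, 12.2% ± 1.48 and 12.5% ± 1.31 for schisandra (SD, n = 3 each) and 11.3% ± 0.178, 12.4% ± 0.352 and 12.97% ± 1.01 for soshiho (SD, n = 2 each). In soshiho and schisandra every high library lay above every low library. High and low libraries overlapped in the other 4 replicated extracts. Zizyphus averaged 11.0% ± 0.291, 10.6% ± 0.930 and 11.4% ± 0.919 and liriope 10.9% ± 0.188, 10.6% ± 0.167 and 12.6% ± 2.79 (SD, n = 3 each), and the liriope high libraries other than replicate 2 had 10.8% and 11.3%. The single libraries of polygala had 13.3%, 9.94% and 13.8% and those of aucklandia 10.6%, 10.0% and 9.82%, from low to high.

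**Figure D1:**
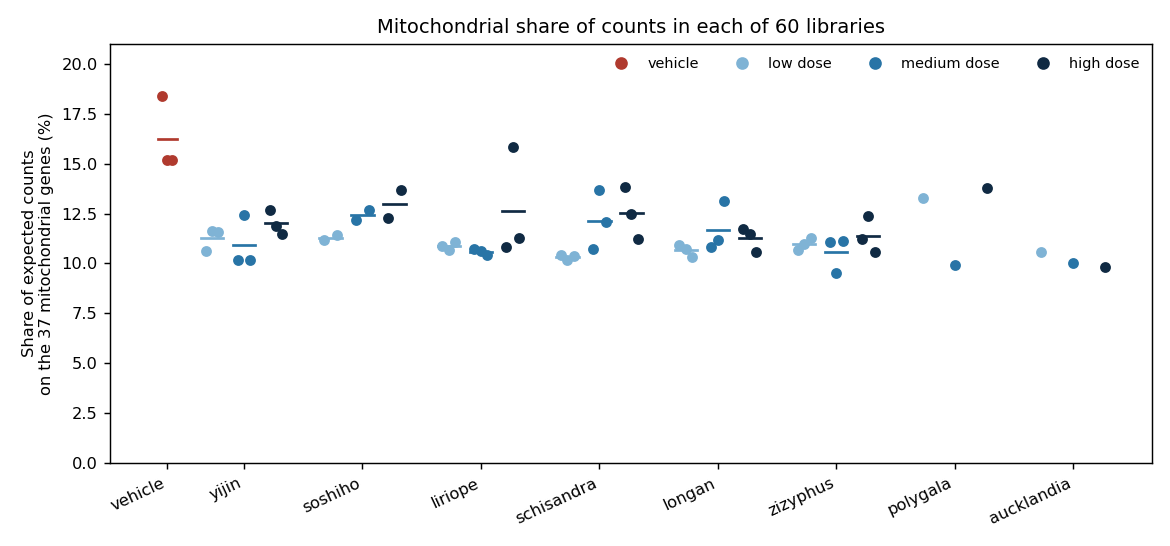
Share of each library's expected counts that fell on the 37 mitochondrial genes, in percent, by extract and dose, with 1 point per library and a bar at the group mean. All extract libraries except liriope high replicate 2, at 15.9%, lie below the lowest vehicle library, at 15.2%.

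Per kilobase of gene, the mRNAs of complex IV were the highest mitochondrial mRNAs and MT-ND6 the lowest, in extract and vehicle libraries alike. MT-CO2 (a core subunit of cytochrome c oxidase, complex IV) had a median of 12614 CPM per kb in extract libraries, against 20077 CPM per kb in vehicle, and MT-CO3 and MT-CO1 of the same complex came close behind. MT-ND6, the complex I subunit on the minus strand, was the lowest mRNA with 1854 CPM per kb in extract libraries, against 2922 CPM per kb in vehicle. MT-RNR2 (the large ribosomal RNA, 16S) had 13077 CPM per kb in extract libraries and 18442 CPM per kb in vehicle. MT-RNR1 (the small ribosomal RNA, 12S) lies upstream of it on the same strand and had 5029 CPM per kb in extract libraries and 6956 CPM per kb in vehicle.

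Set against vehicle, most mitochondrial mRNA and rRNA genes were lower after each replicated extract at both doses tested, except soshiho at the high dose, where fewer passed the test. A gene was called where edgeR's quasi-likelihood test, fitted over 16924 genes, gave a Benjamini-Hochberg adjusted p under 0.05. All 15 mRNA and rRNA genes passed the filter on low counts, together with the tRNA genes MT-TA and MT-TQ, while the other 20 tRNA genes did not. At the high dose, the mRNA and rRNA genes called lower numbered 14 of 15 for yijin (12.2% of all genes tested were called lower), 7 for soshiho (11.1%) and 13 for liriope (8.21%). They numbered 12 for schisandra (11.2%), 15 for longan (9.98%) and 14 for zizyphus (8.73%). The 1 gene called higher at the high dose was MT-RNR1 after schisandra, where 10.8% of all genes were called higher, a share that 1 of 15 does not exceed.

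At the low dose, the genes called lower against vehicle were 15 of 15 for yijin (8.12% of all genes), liriope (8.96%), longan (10.4%) and zizyphus (8.76%). They were 12 for soshiho (6.45%) and 14 for schisandra (11.0%), and 0 of the 15 were called higher in any low-dose comparison by edgeR or DESeq2. The median log2 fold change of the 15 genes was -0.60 for yijin, -0.39 for soshiho, -0.44 for liriope, -0.53 for schisandra, -0.66 for longan and -0.63 for zizyphus at the high dose, with the all-gene medians between 0.00036 and 0.0090. All 12 comparisons share the 3 vehicle libraries and are not separate tests of them. Leaving out 1 library lowered the counts of the 17 tested genes in some comparisons. For soshiho high the 8 genes called lower became 3 without vehicle replicate 1, 1 without soshiho high replicate 2 and 5 without soshiho high replicate 3. For liriope high the 15 became 4 without vehicle replicate 1, 4 without liriope high replicate 1 and 5 without liriope high replicate 3. For soshiho low the 13 became 6 without soshiho low replicate 3. The shares of all genes called lower in these fits were 9.38%, 6.18% and 6.96% for soshiho high, 6.47%, 6.63% and 6.33% for liriope high and 1.98% for soshiho low. For liriope high, the fits with a drop all kept replicate 2. Without that library there was no such drop, and 10.4% of all genes were called lower. Fitted on the compared groups alone, 3 genes were called for liriope high, where 2.38% of all genes were called, and 15 for soshiho high, where 21.7% were.

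The libraries also differed in composition, with trimmed-mean factors of 0.912 to 1.17 in extract libraries, against 0.896 to 0.931 in vehicle. With scaling by library total alone, the median of all genes against vehicle moved to between 0.10 and 0.14, and the share of called genes that were higher was 77.4% to 91.5%, against 45.9% to 51.0% with trimmed-mean scaling. Of the 180 values of the mRNA and rRNA genes against vehicle, 178 were negative under trimmed-mean scaling, library totals alone and scaling by nuclear genes alike. Their median was -0.49 with library totals and -0.61 with trimmed means. The part of library composition in the difference from vehicle was not tested.

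Among the complex V subunits, MT-ATP8 showed the deepest difference from vehicle. It had 642, 929 and 625 CPM in the zizyphus high libraries and 868, 742 and 946 CPM in the longan high libraries, against 2244, 2192 and 1704 CPM in vehicle. All 57 extract libraries lay below the lowest vehicle library for this gene. By edgeR its log2 fold change was -1.48 for zizyphus high (adjusted p = 2.1e-05) and -1.27 for longan high (adjusted p = 0.00013), and -0.90 for both schisandra high and soshiho high (adjusted p = 0.0036 for schisandra and 0.011 for soshiho). Over the 12 comparisons with vehicle it was lower in 12, with a median of -1.24, while MT-ATP6, with which it shares 46 bases, was called lower in 10 with a median of -0.71.

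Complex I subunits were lower to unequal degrees. MT-ND1, which sits where the matrix and membrane arms of the complex meet, had 7543, 6621 and 6925 CPM in yijin high and 5943, 10641 and 5892 CPM in liriope high, against 14866, 10552 and 11978 CPM in vehicle. The only extract library within the vehicle range was liriope high replicate 2. MT-ND1 was called lower in 12 of 12 comparisons, with log2 fold changes of -0.74 to -1.23 and edgeR adjusted p-values from 2.2e-07 to 0.0011. MT-ND2, a neighbour of MT-ND1 on the plus strand and a proton-pumping subunit, was called lower in 12 of 12 with a median of -0.82. MT-ND5, MT-ND4L and MT-ND4, further pumping or membrane-arm subunits, were called lower in 12, 12 and 11 comparisons with medians of -0.60, -0.45 and -0.70. MT-ND3 was called lower in 9, with a median of -0.50.

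The complex IV subunits MT-CO1, MT-CO2 and MT-CO3 were called lower against vehicle in 12, 11 and 9 of the 12 comparisons, with median log2 fold changes of -0.58, -0.76 and -0.47. MT-CYB, the only complex III subunit encoded in mitochondrial DNA, was called lower in 11 with a median of -0.61, and soshiho high was the comparison in which it was not called (log2 fold change -0.31, edgeR adjusted p = 0.095). MT-CO3, a structural subunit of the oxidase, had 13219, 11268 and 9862 CPM in schisandra high, against 15906, 13586 and 12267 CPM in vehicle. These groups overlapped, and its log2 fold change of -0.28 did not pass (edgeR adjusted p = 0.15).

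**Figure D2:**
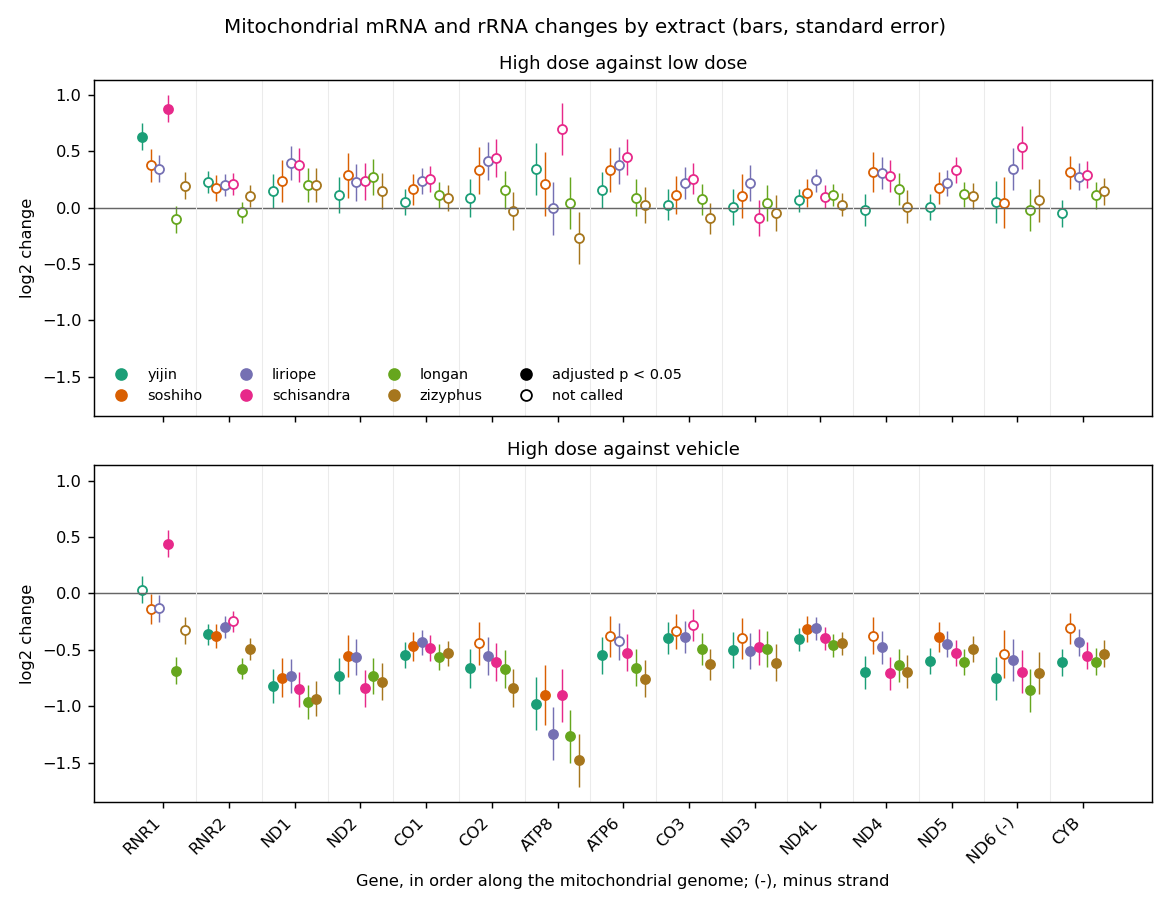
Log2 fold change of the 13 mRNA and 2 rRNA genes in genome order, for the high dose against vehicle and against the low dose in each of the 6 replicated extracts. MT-ATP8 and MT-ND1 are the lowest mRNAs against vehicle on the median over comparisons, and MT-RNR1 stands above the other genes in yijin and schisandra in both panels.

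The high dose was next set against the low dose of the same extract, a comparison within one sample code. By edgeR, MT-RNR1 was the only mitochondrial gene called, higher in yijin (7.79% of all genes were called in either direction) and in schisandra (7.33%). Of the 17 genes tested, 0 were called in soshiho (5.08% of all genes called), liriope (0.0295%), longan (0.0177%) and zizyphus (0.0355%). At an unadjusted p under 0.05, 2 of the 17 passed in soshiho, 10 in liriope, 0 in longan and 0 in zizyphus, and DESeq2 called 0 in each of the 4. Here and below, the share of all genes at the unadjusted threshold is not given, so such counts have no background beside them and are not results. In liriope, longan and zizyphus almost no gene of the transcriptome was called, so the counts of 0 there stand at the level of the background. Fitted on the libraries of the compared groups alone, 12 genes were called in soshiho, where 11.2% of all genes were called, and 3 in yijin, where 12.5% were.

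MT-RNR1 had 9764, 9240 and 8160 CPM in schisandra high, against 6425, 4015 and 4407 CPM in schisandra low. The groups did not overlap, and the low library nearest to the high ones was replicate 1, the deepest library. The log2 fold change was 0.88 ± 0.12 (SE), with an edgeR adjusted p of 1.0e-06, and it stayed called in 14 of 14 alternatives, between 0.75 and 1.10. In yijin it had 7193, 6844 and 6437 CPM at the high dose, against 4285, 4517 and 4431 CPM at the low dose, again without overlap. The log2 fold change was 0.63 ± 0.12 (SE), with an edgeR adjusted p of 0.00027, and it stayed called in 13 of 13 alternatives, between 0.59 and 0.67. In soshiho it was 0.38 ± 0.15 (SE; edgeR adjusted p = 0.16) and in liriope 0.35 ± 0.12 (SE; edgeR adjusted p = 0.56), neither past the threshold. In zizyphus and longan it was 0.20 and -0.10, with an edgeR adjusted p of 1 in each.

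Against vehicle, MT-RNR1 departed from the other mitochondrial genes at the high dose. The schisandra high libraries lay above the vehicle libraries, which had 6940, 6636 and 6454 CPM, by a log2 fold change of 0.44 ± 0.12 (SE; edgeR adjusted p = 0.0055). Yijin, soshiho, liriope and zizyphus high gave 0.03, -0.14, -0.13 and -0.33 and did not pass (edgeR adjusted p = 0.88, 0.53, 0.50 and 0.053). In longan high it was lower by edgeR, with a log2 fold change of -0.68 and an adjusted p of 6.2e-05, close to the median of the other genes there. At the low dose it was called lower against vehicle in all 6 extracts. That call held in every alternative for yijin, liriope, longan and zizyphus, in 12 of 14 for schisandra and in 10 of 12 for soshiho. It was lost for schisandra with the compared groups alone (adjusted p = 0.105) or without low replicate 2 (edgeR adjusted p = 0.073), and for soshiho without low replicate 2 or 3 (edgeR adjusted p = 0.113 and 0.067).

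The other genes mostly leaned higher at the high dose without passing the test. Of the 15 mRNA and rRNA genes, the log2 fold change of high against low was positive for 15 in soshiho, 14 in liriope, 14 in schisandra, 13 in yijin, 12 in longan and 11 in zizyphus. The medians were 0.21, 0.24, 0.29, 0.07, 0.11 and 0.06 in that order, with all-gene medians between -0.0058 and 0.0057. In schisandra, MT-ATP8 had 1469, 876 and 932 CPM at the high dose, against 323, 891 and 810 CPM at the low dose, which overlap. Its log2 fold change of 0.70 ± 0.23 (SE) missed the threshold in edgeR (adjusted p = 0.058) and passed it in DESeq2, which called 2 genes there, and without low replicate 1 it was 0.36 (edgeR adjusted p = 0.50). Without the 2 deepest libraries, which were left out after seeing the data, MT-RNR1 and MT-RNR2 were called in schisandra high against low, and MT-ATP8 was not. Leaving out single libraries gave 1 to 4 genes called there. Of all genes 10.1% were called by DESeq2, 4.32% without the 2 deepest libraries and 3.63% to 10.8% with single libraries left out.

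Because both rRNAs lie side by side on one strand, the level of MT-RNR1 was also expressed in percent of MT-RNR2, each per kilobase. In schisandra the percentage from low to medium to high was 36.7 ± 3.36, 39.0 ± 1.73 and 58.9 ± 2.10 (SD, n = 3 each), and in yijin 36.4 ± 0.996, 39.1 ± 2.85 and 48.1 ± 1.98 (SD, n = 3 each). The vehicle libraries averaged 36.7 ± 2.12 (SD, n = 3). It was 37.5 ± 0.951, 40.6 ± 1.10 and 43.1 ± 0.832 in soshiho (SD, n = 2 each) and 37.2 ± 1.44, 37.4 ± 1.47 and 40.9 ± 2.12 in liriope (SD, n = 3 each). In these 4 extracts each high library lay above each low library. Longan, with 37.6 ± 3.19, 37.8 ± 1.79 and 36.1 ± 0.595, and zizyphus, with 38.4 ± 1.52, 38.1 ± 2.03 and 41.0 ± 5.56, had overlapping doses (SD, n = 3 each). The single polygala libraries had 43.4, 53.4 and 70.1 from low to high, and the aucklandia libraries 37.3, 38.2 and 31.8.

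**Figure D3:**
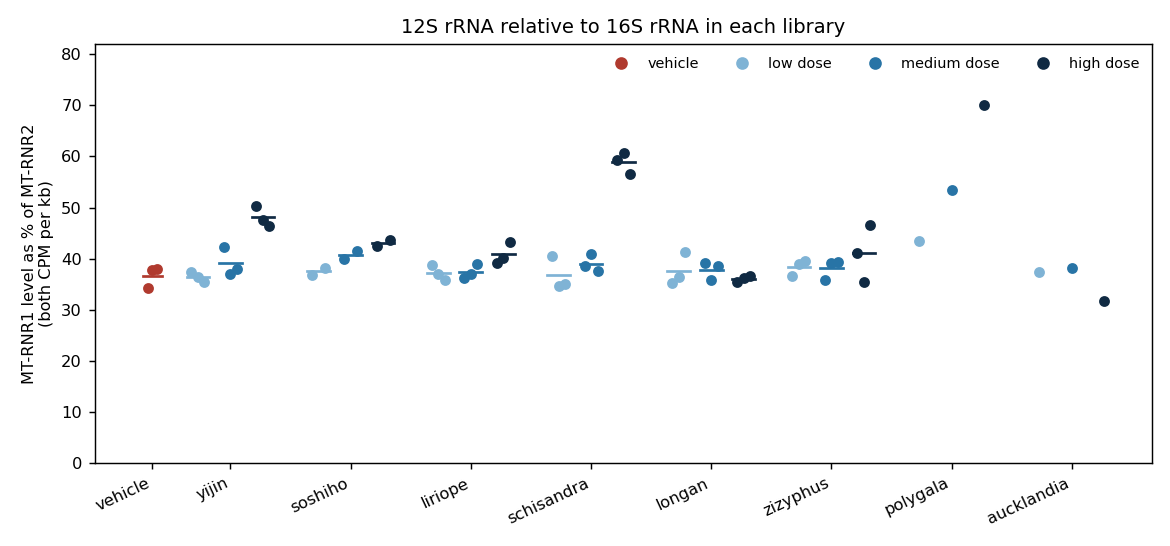
Level of MT-RNR1 in percent of MT-RNR2, each in CPM per kb, by extract and dose, with 1 point per library and a bar at the group mean. The schisandra high libraries average 58.9%, against 36.7% at the low dose, and the polygala high library, at 70.1%, is the highest of the 60.

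MT-RNR2 itself had smaller log2 fold changes between doses than MT-RNR1 in these extracts. It had 26889, 24864 and 23559 CPM in schisandra high, against 25873, 18987 and 20582 CPM in schisandra low, where the overlap rests on low replicate 1. Its log2 fold change of 0.21 ± 0.10 (SE) did not pass (edgeR adjusted p = 0.20). Without low replicate 1 it was 0.34 and passed (edgeR adjusted p = 0.045), as it did without the 2 deepest libraries and with no filter. In yijin it had 23386, 23480 and 22679 CPM at the high dose, against 18718, 20246 and 20444 CPM at the low dose, without overlap. The log2 fold change there was 0.23 ± 0.10 (SE) and did not pass (edgeR adjusted p = 0.17), except with no filter or with the compared groups alone.

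Extracts that share a sample code were compared at the high dose. Schisandra against liriope gave 1 of 17 genes, MT-RNR1, called higher (7.21% of all genes called, a share that this count does not exceed). Its log2 fold change was 0.57 ± 0.12 (SE; edgeR adjusted p = 0.00095). The liriope high libraries had 4585, 7211 and 6485 CPM, all below the 3 schisandra high libraries given above. This call held in 13 of 14 alternatives and was lost when the fit used those groups alone (adjusted p = 0.11). The difference between the dose effects of schisandra and liriope was 0.53 ± 0.17 for MT-RNR1 and did not pass (SE; edgeR adjusted p = 0.062). That interaction gave 0 calls among the 17 by edgeR, against 4.11% of all genes, with 4 at an unadjusted p under 0.05 and 1, MT-RNR1, by DESeq2. It also became 1 call, MT-RNR1, without schisandra low replicate 1 or without liriope high replicate 2. Of all genes 7.53% were called by DESeq2 and 2.09% and 3.51% in these 2 fits.

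Yijin against soshiho and zizyphus against longan gave 0 mitochondrial genes by edgeR at the high dose (3.53% and 0.0532% of all genes called), with 2 and 1 at an unadjusted p under 0.05 and 0 in each by DESeq2. The differences of their dose effects gave 0 as well (0.88% and 0.00591% of all genes called), with 0 at an unadjusted p under 0.05 and 0 by DESeq2.

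MT-ND6 is the only mRNA gene of the minus strand, so its level was set against the plus-strand mRNAs. The strand setting used in counting is not given, so reads of MT-ND6 and reads of plus-strand RNA across it cannot be told apart. Per kilobase it stood at a median of 24.1% of the mean plus-strand mRNA in extract libraries, against 25.6% ± 1.97 in vehicle (SD, n = 3). Schisandra low replicate 1 was the lowest library, at 10.6%, where its replicates had 25.0% and 25.1%. In CPM, MT-ND6 had 1192, 1038 and 925 in schisandra high, against 374, 895 and 912 in schisandra low. Its log2 fold change of 0.53 ± 0.19 (SE) did not pass (edgeR adjusted p = 0.076), although every high library lay above every low library. Without low replicate 1 it was 0.22 (edgeR adjusted p = 0.62), and it passed with the replicate block, with no filter, and without low replicate 2 or 3. Against vehicle, with 2138, 1534 and 1442 CPM, MT-ND6 was called lower in 10 of 12 comparisons, with a median of -0.76.

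The 3 aucklandia libraries showed the widest departure of MT-ND6 from the plus-strand mRNAs, without a replicate and with the same limit on strand. MT-ND6 had 877, 1002 and 1721 CPM from low to medium to high, while MT-CO3 had 9605, 8101 and 4412 CPM and MT-CO1 17512, 15582 and 8952 CPM. Relative to the mean plus-strand mRNA per kilobase, MT-ND6 was at 22.9%, 28.3% and 59.4%, the last being the highest of all 60 libraries. As a log2 ratio of CPM, high over low was 0.97 for MT-ND6 and 0.42 for MT-ND5, its neighbour on the opposite strand. It was -1.12 for MT-CO3 and -0.97 for MT-CO1. Of the 15 mRNA and rRNA genes 4 were higher and 11 lower, and 1 was 2-fold or more apart, where 20.4% of 9873 genes with at least 10 CPM were. The trimmed-mean factors were 0.998 at the low and 1.09 at the high dose. The sign of small differences, such as -0.05 for MT-ND4, therefore depends on the scaling.

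Polygala behaved otherwise, again with 1 library per dose. MT-RNR1 had 5564, 5825 and 9737 CPM from low to medium to high, a log2 ratio of 0.81 for high over low. MT-RNR2 had 20960, 17820 and 22716 CPM. MT-ND1 had 9224, 4257 and 5639 CPM, with a log2 ratio of -0.71 for high over low. Under trimmed-mean scaling, the rRNA genes were the 2 that were higher at the high dose, and the 13 mRNA genes were lower. The factors were 0.970 at the low dose and 1.17 at the high dose, the highest of the 60 libraries. The sign of small differences, such as -0.09 for MT-CYB, therefore depends on the scaling. Of library totals, the mRNA genes together held 10.7% at the low and 10.0% at the high dose, and the rRNA genes 2.57% and 3.79%. The median of the 15 was -0.30, and 0 of them were 2-fold or more apart, where 14.7% of 9796 genes were.

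**Figure D4:**
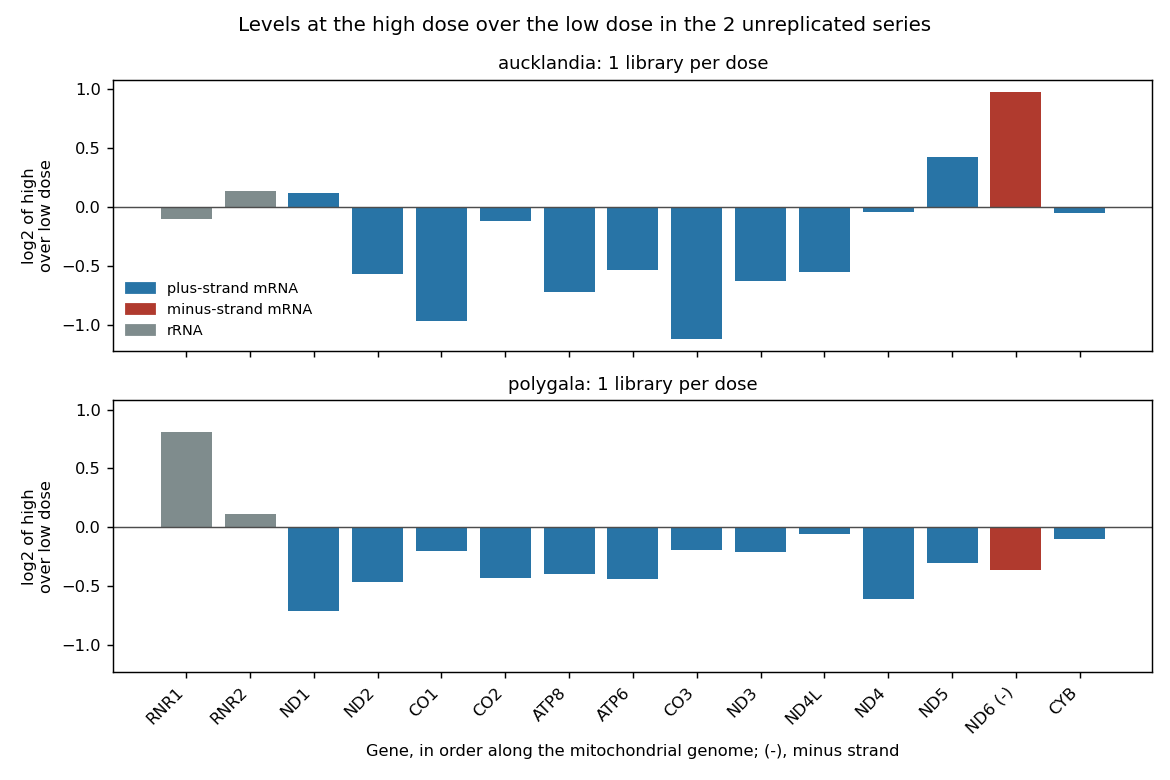
Log2 ratio of CPM at the high dose over the low dose for each mRNA and rRNA gene, in genome order, for aucklandia and polygala, 1 library per dose. In aucklandia MT-ND6 is at 0.97 and MT-CO3 at -1.12, and in polygala MT-RNR1 is at 0.81.

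The 22 tRNA genes held 1880 counts over all 60 libraries together. The library type, an mRNA library per the labels' protocols, and the size of tRNAs limit what these counts can show. Of them, 1814 (96.5%) lay on the 8 minus-strand genes and 66 (3.51%) on the 14 plus-strand genes. The neighbours whose sequences are printed above show this change of strand, which did not hold for every gene. MT-TQ had 312 counts in all and MT-TM, next to it on the other strand, 1. MT-TA had 724 and MT-TN 132, beside 1 for MT-TW. MT-TS1 (serine) had 243 and MT-TE (glutamate, next to MT-ND6 on its strand) 236, while MT-TF (phenylalanine), the highest plus-strand gene, had 32 and MT-TD, MT-TG and MT-TS2 had 0. The minus-strand gene MT-TP (proline) had 1 count, as did its plus-strand neighbour MT-TT (threonine). The kit keeps strand, but the strand setting used in counting is not given in the sources used here, so reads of a minus-strand tRNA and reads of the plus-strand RNA across it cannot be told apart.

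The summed level of the 8 minus-strand tRNA genes was 0.134 to 1.56 CPM in the 57 extract libraries (median 1.08), against 3.62, 2.69 and 2.43 CPM in vehicle. For this sum all extract libraries lay below all vehicle libraries, and the lowest was schisandra low replicate 1, where 3 counts amount to 0.0803 CPM. Not every gene followed the sum. MT-TE went the other way, with a median of 0.124 CPM in extract libraries, against 0.0369 to 0.0458 CPM in vehicle, all at low counts. MT-TQ had 4, 11 and 6 counts in the schisandra high libraries and 0, 2 and 3 in the liriope high libraries, against 30, 29 and 13 in vehicle. MT-TA had 1 to 22 counts per extract library, against 41, 17 and 30 in vehicle. By edgeR MT-TQ was called lower against vehicle in 12 of 12 comparisons and MT-TA in 9 of 12, with log2 fold changes of -1.80 to -3.99 for MT-TQ and -1.05 to -2.21 for MT-TA. MT-TQ reached the count minimum chiefly through vehicle, where it is high, with a median of 0.145 CPM in extract libraries, against 1.11 CPM in vehicle. MT-TA, with a median of 0.444 CPM in extract libraries, depended less on vehicle. The calls describe these 2 genes at low counts and add no support. For nearly all of these calls DESeq2 gave no adjusted p.

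**Figure D5:**
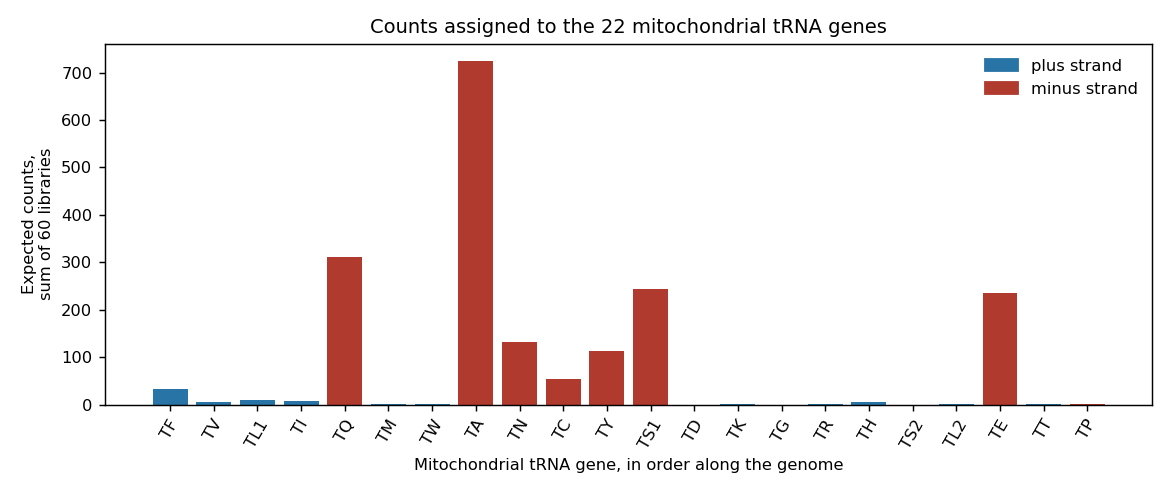
Expected counts of each of the 22 mitochondrial tRNA genes, in genome order, summed over the 60 libraries and coloured by strand. MT-TA, with 724 counts, is the highest of the 8 minus-strand genes, and MT-TF, with 32, the highest of the 14 plus-strand genes.

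Copies of mitochondrial DNA in the nuclear genome can share reads with the genes themselves. The 3 copies with a mean of at least 5 CPM lie together on chromosome 1: MTATP6P1 (chr1:633696-634376, mean 1388 CPM), MTND2P28 (chr1:629640-630683, 229 CPM) and MTCO1P12 (chr1:631074-632616, 47.1 CPM). They are 98.5% identical to MT-ATP6, 98.2% to MT-ND2 and 98.6% to MT-CO1, and their longest identical runs, 141, 266 and 245 bases, are longer than the reads of 100 bp. Together with the other copies they held 0.108% to 0.326% of a library's counts. Adding them to the mitochondrial genes moved the median share from 11.1% to 11.3% in extract libraries and from 15.2% to 15.5% in vehicle. All 3 were called lower in each of the 6 high-dose comparisons with vehicle by edgeR, with log2 fold changes of -0.54 to -0.98 for MTATP6P1, -1.01 to -1.32 for MTND2P28 and -0.88 to -1.08 for MTCO1P12. Of the high against low comparisons 0 called any of them, and in schisandra MTATP6P1 came to 0.53 (edgeR adjusted p = 0.059).

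Among the nuclear subunits of the respiratory complexes, far more were higher than lower against vehicle, the opposite direction to the mitochondrial ones. All 79 listed subunits passed the filter, and at the high dose against vehicle 23 were called higher and 1 lower for yijin, 20 and 0 for soshiho, 18 and 0 for liriope, 19 and 0 for schisandra, 24 and 0 for longan and 19 and 0 for zizyphus. Of all genes tested, 11.1%, 10.6%, 8.56%, 10.8%, 9.64% and 8.15% were called higher in the same comparisons. The median log2 fold changes of the 79 were 0.10 to 0.16. Between the high and the low dose edgeR called 0 of the 79 in any extract, with 0 to 5 at an unadjusted p under 0.05 and 0 by DESeq2. In schisandra 2 were called without low replicate 2 and 4 without low replicate 3, where 10.8% and 10.3% of all genes were called.

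Of 87 listed nuclear genes for mitochondrial transcription, RNA processing, translation, biogenesis and protein quality control, the share called between doses was 4.6% in yijin, 2.3% in soshiho and 4.6% in schisandra. These shares lie below those of all genes (7.79%, 5.08% and 7.33%), so the calls named here are no more than the background. In yijin 4 were called higher and 0 lower: REXO2 (an exonuclease that clears short mitochondrial RNA, 0.31, edgeR adjusted p = 0.00036), PNPT1 (polynucleotide phosphorylase of the RNA degradosome, 0.22), PDE12 (which removes poly(A) tails in mitochondria, 0.14) and PRKAA2 (a catalytic AMPK subunit, 0.25). REXO2 and PNPT1 kept their calls in every alternative run, whereas PDE12 lost its call with library size alone, with no filter and without any 1 of high replicates 1, 2 and 3 and low replicates 2 and 3. In soshiho 0 were higher and 2 lower, MTERF4 (a ribosome assembly factor, -0.25) and YY1 (a transcription factor, -0.19). In schisandra PPARGC1A (the coactivator PGC-1alpha, 0.37, edgeR adjusted p = 0.0051) and FASTK (which stabilises MT-ND6 mRNA, 0.21) were higher, and TFAM (which packages mitochondrial DNA and starts its transcription, -0.21, edgeR adjusted p = 0.028) and HSPD1 (the matrix chaperonin, -0.12) were lower. With the compared groups alone 0 of these 4 were called. Without schisandra low replicate 1, PPARGC1A was still called (0.35), whereas TFAM (-0.07), FASTK (0.12) and HSPD1 (-0.07) were not. Against vehicle, schisandra high did not pass for TFAM (-0.03, edgeR adjusted p = 0.78) or PPARGC1A (0.10, edgeR adjusted p = 0.47). Schisandra low did, with TFAM at 0.18 (edgeR adjusted p = 0.033) and PPARGC1A at -0.27 (edgeR adjusted p = 0.025), and without low replicate 1 neither was called (0.04 and -0.25). In liriope, longan and zizyphus edgeR called 0 of the 87, with 6, 2 and 4 at an unadjusted p under 0.05 and 0 by DESeq2. With single libraries left out, the counts were 2 to 5 in yijin and 1 to 9 in schisandra, and without any 1 of the 4 soshiho libraries 0 were called. Of all genes 4.94% to 6.09%, 3.63% to 10.8% and 2.6% to 2.84% were called in those fits. In schisandra the 4 became 1 without high replicate 1 or 3, 2 without high replicate 2 and 9 without low replicate 2 or 3, and in yijin they became 2 without high replicate 2 or low replicate 3. POLRMT, the mitochondrial RNA polymerase, and LRPPRC, which stabilises mitochondrial mRNAs, were not called between doses in any extract.

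Within sample code 9, the dose effect of schisandra on TFAM differed from that of liriope by a log2 fold change of -0.34 (edgeR adjusted p = 0.016). That call was lost without schisandra low replicate 1 (-0.20, edgeR adjusted p = 0.17), without liriope low replicate 3, without the 2 deepest libraries and with the compared groups alone. PPARGC1A was higher in schisandra high than in liriope high by 0.41 (edgeR adjusted p = 0.0016).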

How the data were processed

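RNA-seq libraries of HepG2 cells were prepared as directional mRNA libraries and read as pairs on an MGIseq instrument, per the labels' protocols. Per the submitters' processing notes, the authors used FastQC 0.11.9, Trim Galore 0.6.5, STAR 2.7.3a and RSEM 1.3.3 on hg38 (GRCh38). They deposited RSEM expected counts per Ensembl gene, which divide reads that match several genes. The annotation release and the strand setting are not given in the sources used here, and a wrong strand setting would blur neighbouring genes of opposite strand. Of the deposited values 10.4% held a fraction (23.6% for the mitochondrial genes), and they were rounded before testing. All 60 columns were mapped to samples, 0 were left unused, and 0 pairs of libraries were identical. Over 51 replicate pairs the chi-square per degree of freedom was 2.70 to 65.1, above counting noise.

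Symbols were found for 56558 of 60675 identifiers. Positions and sequences came from GENCODE 29, whose match with the authors' annotation was not tested. One edgeR 4.0.16 fit (R 4.3.3, limma 3.58.1) took in the 54 libraries of the 19 replicated groups: trimmed-mean normalization, edgeR's filter by group (16924 genes kept), 1 mean per group and the quasi-likelihood test, with Benjamini-Hochberg adjustment over all genes tested within each of 24 comparisons and a threshold of 0.05. Standard errors were derived from the quasi-likelihood test, as the absolute log2 fold change divided by the square root of its F statistic. CPM use trimmed-mean factors over all 60 libraries, and CPM per kb divide by gene length. Shares of counts and ratios between genes have no test. Single-library series use the log2 ratio of CPM for the mitochondrial genes. For the shares of all genes, 1 was added to each CPM, over genes with at least 10 CPM in the high or the low library.

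Alternatives were scaling by library total or by nuclear genes alone, DESeq2 1.42.0, no filter, the compared groups alone, unrounded counts, a replicate block and each library left out in turn. Leaving out the 2 deepest libraries together was added after seeing the data. The fitting script was tested on simulated data. Named were all genes whose symbol starts with MT-, TFAM, POLRMT, LRPPRC, PPARGC1A, up to 4 members of each nuclear list and extract with the smallest p among those called between doses, and nuclear copies averaging at least 5 CPM. The members, lists and rules were chosen with earlier results of these data known.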

Additional observations from a re-analysis of the deposited data

How the results depend on the processing

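Depth limits the tRNA genes most, since 3 counts amount to 0.0803 to 0.138 CPM and most tRNA genes lay at or below that. For the mRNA and rRNA genes the number of replicates sets the precision, and with 2 libraries per dose soshiho has the least. Among the genes called, 0 reversed under any alternative, and 11 with library totals alone, 17 with the compared groups alone, 2 with the replicate block and 126 of 1095 with 1 library left out fell short of the threshold. Nuclear scaling, unrounded counts, DESeq2, no filter and leaving out the 2 deepest libraries lost 0 of the calls that could be compared.

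Counts below are of mitochondrial genes called. Without the filter on low counts, 32 genes were tested and the counts were 4 for yijin, 7 for soshiho, 14 for liriope, 13 for schisandra, 1 for longan and 2 for zizyphus in high against low, where 3.03%, 2.26%, 0.56%, 3.44%, 0.171% and 0.214% of all 36945 genes were called. They were 15 for soshiho high against vehicle, 3 for yijin against soshiho, 4 for schisandra against liriope and 2 for zizyphus against longan at the high dose, and 2, 3 and 2 for the differences of their dose effects. Of all genes 8.99%, 1.61%, 3.08% and 0.287% were called in those comparisons and 0.641%, 2.65% and 0.173% in the differences. In that fit the prior degrees of freedom were infinite, so each gene received the spread of the trend: 0.609 for MT-RNR1, against 2.95 with the filter. With the compared groups alone the counts were 3 for yijin and 12 for soshiho in high against low, 15 for soshiho high and 3 for liriope high against vehicle, 5 for yijin against soshiho, 0 for schisandra against liriope and 2 for the difference of the dose effects of yijin and soshiho. Of all genes 12.5%, 11.2%, 21.7%, 2.38%, 8.16%, 1.61% and 2.12% were called in these. The share of called genes higher against vehicle ran from 35.9% to 48.9% there. The causes were not tested.

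DESeq2 gave 2 for schisandra high against low and 1 for the difference of the dose effects of schisandra and liriope. Library totals alone gave 1 for that difference. Of all genes 10.1%, 7.53% and 3.54% were called in these. Without the 2 deepest libraries, schisandra high against low gave 2, schisandra against liriope 3 and the difference of their dose effects 1. There 4.32%, 8.88% and 2.19% of all genes were called. The median share of counts without the rRNA genes was 8.72% in extract libraries and 12.4% in vehicle libraries, and with the nuclear copies added 11.3% and 15.5%.

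With each library left out in turn, schisandra high against low gave 1 to 4 calls, schisandra against liriope 1 to 2 and the difference of their dose effects 0 to 1. Of all genes 3.63% to 10.8%, 4.76% to 7.12% and 2.09% to 8.2% were called in these fits. Against vehicle the high dose gave 11 to 16 for yijin, 1 to 9 for soshiho, 4 to 16 for liriope, 10 to 16 for schisandra, 13 to 17 for longan and 13 to 16 for zizyphus. The low dose gave 14 to 17 for yijin, 6 to 15 for soshiho, 16 to 17 for liriope, 15 to 17 for schisandra, 15 to 17 for longan and 13 to 17 for zizyphus. In these fits 11.0% to 20.2% of all genes were called at the high dose and 3.47% to 22.8% at the low dose. Yijin high against low stayed at 1, and the other comparisons between doses or extracts at 0.

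The replicate numbers did not pair the samples: in 0 of the 21 comparisons did every same-numbered pair correlate above 0.1, with correlations from -0.13 to 0.19. With the replicate block, schisandra high against low gave 3 calls (MT-ND6, MT-ND5 and MT-RNR1) and schisandra against liriope 2 (MT-TQ and MT-RNR1). Of all genes 9.57% and 8.92% were called in these fits.

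Of the nuclear genes, fits on the compared groups alone called 11 of the 87 for yijin, 10 for soshiho and 0 for schisandra between doses. The fit of all groups called 4, 2 and 4, and DESeq2 called 7 for yijin. With the compared groups alone 12.5%, 11.2% and 0.869% of all genes were called, and 9.9% by DESeq2 for yijin. Among the respiratory subunits, no filter gave 9 for schisandra, 4 for liriope and 1 for soshiho, and the compared groups alone gave 4 for soshiho, against 0 in each. Of all genes 3.44%, 0.56%, 2.26% and 11.2% were called, in the same order.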
